A study of Mus musculus with 9 samples.

Results

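The genes described here are *Ctla4* and 9 genes of the B7 family and of related immune checkpoints, measured by RNA sequencing in primary mouse spleen B cells. The members were chosen by symbol, and *Ctla4* was chosen because of its low day 3 level in B cells with a deletion of the monocarboxylate transporter gene *Mct1*, listed in the deposited table as *Slc16a1*. All 10 were found among the 17596 genes of the table, and 9 of them were among the 10823 genes that were tested, those that averaged 1 FPKM or more across the 9 libraries. FPKM are fragments scaled to transcript length and to the mapped total, so that levels of different genes are given per length. *Pdcd1* was the member below that limit, with a mean of 0.328 FPKM, and *Ctla4*, with a mean of 3.50 FPKM, passed it through its day 3 levels alone.

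The study compared *Mb1Cre* mice, the control, with *Mct1f/fMb1Cre* mice, to ask what this transporter does in B cell activation. Both genotypes carried the Mb1-Cre allele, which drives Cre from early stages of B cell development, so an effect of Cre itself was shared by all groups. In *Mct1f/fMb1Cre* mice both copies of *Mct1* were floxed on a C57BL/6J background, and mice of the study were 6 to 8 weeks old. On day 0 the cells were naive and untreated, with 2 libraries of each genotype, and on day 3 they had been cultured with LPS (10 μg/ml), a ligand of Toll-like receptor 4, and IL-4 (50 ng/ml), with 2 control libraries and 3 *Mct1f/fMb1Cre* libraries.

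CTLA4 is an inhibitory receptor best known from T cells, where it competes with the activating receptor CD28 for the same ligands, CD80 and CD86, and can remove those ligands from the surface of other cells. CD80 and CD86, the B7 ligands in the strict sense, appear on B cells as they are activated and let them stimulate T cells. The other members are further ligands of the B7 family (ICOSL, PD-L1 and PD-L2), the receptor PD-1 that binds the latter pair, the inhibitory receptor BTLA with its ligand HVEM, and LAG3, a receptor related to CD4.

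The members lie at separate places of the genome, with some close pairs (GRCm38.p6, RefSeq). *Ctla4* (chr1:60909025-60915832, plus strand) lies between *Cd28*, 136 kb away, and *Icos*, 44.9 kb away, with 0 protein-coding genes between the neighbours. *Cd274* (chr19:29362107-29388095), which encodes PD-L1, and *Pdcd1lg2* (chr19:29410919-29472927), which encodes PD-L2, are 22.8 kb apart, and *Lag3* (chr6:124904359-124912434) is 16.1 kb from *Cd4*. *Cd86* (chr16:36568956-36666158) and *Cd80* (chr16:38457430-38495958) share a chromosome but have 24 protein-coding genes between them. The remaining members are *Icosl* (chr10:78069368-78079525), *Pdcd1* (chr1:94038305-94052553), *Btla* (chr16:45223705-45252895) and *Tnfrsf14* (chr4:154918487-154928620), the gene of HVEM.

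The promoters of *Ctla4* and *Cd80* are shown because these were the tested members with the largest log2 differences between the genotypes on day 3. Each is 300 bases of RefSeq sequence (GRCm38.p6, plus strand), with 250 bases before the annotated transcription start and 50 from it, at chr1:60908775-60909074 for *Ctla4* and chr16:38458683-38458982 for *Cd80*, where the start used lies inside the annotated gene. Capitals mark matches to motifs of factors that act downstream of B cell activation.
Ctla4: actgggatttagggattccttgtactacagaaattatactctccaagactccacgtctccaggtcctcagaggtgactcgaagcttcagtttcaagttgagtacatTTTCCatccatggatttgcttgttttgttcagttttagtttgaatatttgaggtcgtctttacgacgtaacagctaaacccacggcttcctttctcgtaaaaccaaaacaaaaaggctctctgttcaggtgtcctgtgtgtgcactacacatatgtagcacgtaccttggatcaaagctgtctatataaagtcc
Cd80: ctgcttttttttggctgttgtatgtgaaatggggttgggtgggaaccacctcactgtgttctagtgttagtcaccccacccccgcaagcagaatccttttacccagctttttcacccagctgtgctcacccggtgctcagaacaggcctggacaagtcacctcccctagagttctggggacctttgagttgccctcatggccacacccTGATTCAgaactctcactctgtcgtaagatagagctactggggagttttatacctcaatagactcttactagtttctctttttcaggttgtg
The motifs searched on both strands were TGANTCA (AP-1), GGAAA (the NFAT core), TTC and GAA either 3 bases apart (GAS) or 4 bases apart (STAT6), and the NF-kB motif. With the start site as position 0, *Ctla4* held 1 match, an NFAT core on the minus strand at -144 to -140, and *Cd80* held 1 AP-1 motif at -42 to -36. Among all 32851 promoters of the table, 61.3% held an NFAT core and 7.81% an AP-1 motif, while 8.30% held a GAS, 6.95% a STAT6 and 8.46% an NF-kB match. Of the 10 members, 8 had an entry in the table. *Pdcd1lg2* held matches to 3 of the motifs (NFAT core, STAT6 and NF-kB), *Icosl* held an NF-kB match, and *Cd274*, *Pdcd1* and *Tnfrsf14* held 2 NFAT cores each. These matches describe the letters only, and no binding was measured here.

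Depth was unknown, since FPKM hold no read counts, and precision rested on the 2 or 3 libraries per group. The labels name no mouse or litter, so p-values measure the spread between these libraries, which may be technical. The targeted gene *Slc16a1* was at 22.6 and 23.0 FPKM in the control and at 9.50 to 10.8 FPKM in *Mct1f/fMb1Cre* libraries on day 3, but at 3.80 and 4.33 against 3.71 and 4.06 FPKM on day 0, where the genotype rests on the labels. All 6 B cell markers were detected above 1 FPKM in every group, with summed levels of 4033 to 4456 FPKM on day 0 and 2002 to 2147 FPKM on day 3. The Y-linked *Ddx3y* was at 0.24 and 0.02 FPKM in the day 0 controls and at 31.1 and 0.20 FPKM in the *Mct1f/fMb1Cre* libraries of that day, but at 14.7 to 16.9 FPKM in all 5 libraries of day 3. Sex and day therefore cannot be told apart in the control comparison of the days.

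In naive B cells of both genotypes, *Btla* and *Icosl* were the most abundant members and *Ctla4* and *Pdcd1* the least. In the control, *Btla* stood at 258 ± 2.75 FPKM (SD, n = 2) and *Icosl* at 131 ± 13.7 FPKM (SD, n = 2). They were followed by *Tnfrsf14* (30.7 ± 1.44 FPKM), *Cd86* (28.9 ± 2.67 FPKM) and *Cd274* (22.4 ± 1.49 FPKM), of which *Tnfrsf14* and *Cd86* overlapped. A lower tier held *Lag3* (6.19 ± 0.955 FPKM), *Cd80* (5.31 ± 0.276 FPKM) and *Pdcd1lg2* (4.41 ± 0.318 FPKM), ahead of *Ctla4* (0.435 ± 0.120 FPKM) and *Pdcd1* (0.215 ± 0.0636 FPKM). The order of all 10 was the same in the *Mct1f/fMb1Cre* libraries of day 0.

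**Figure D1:**
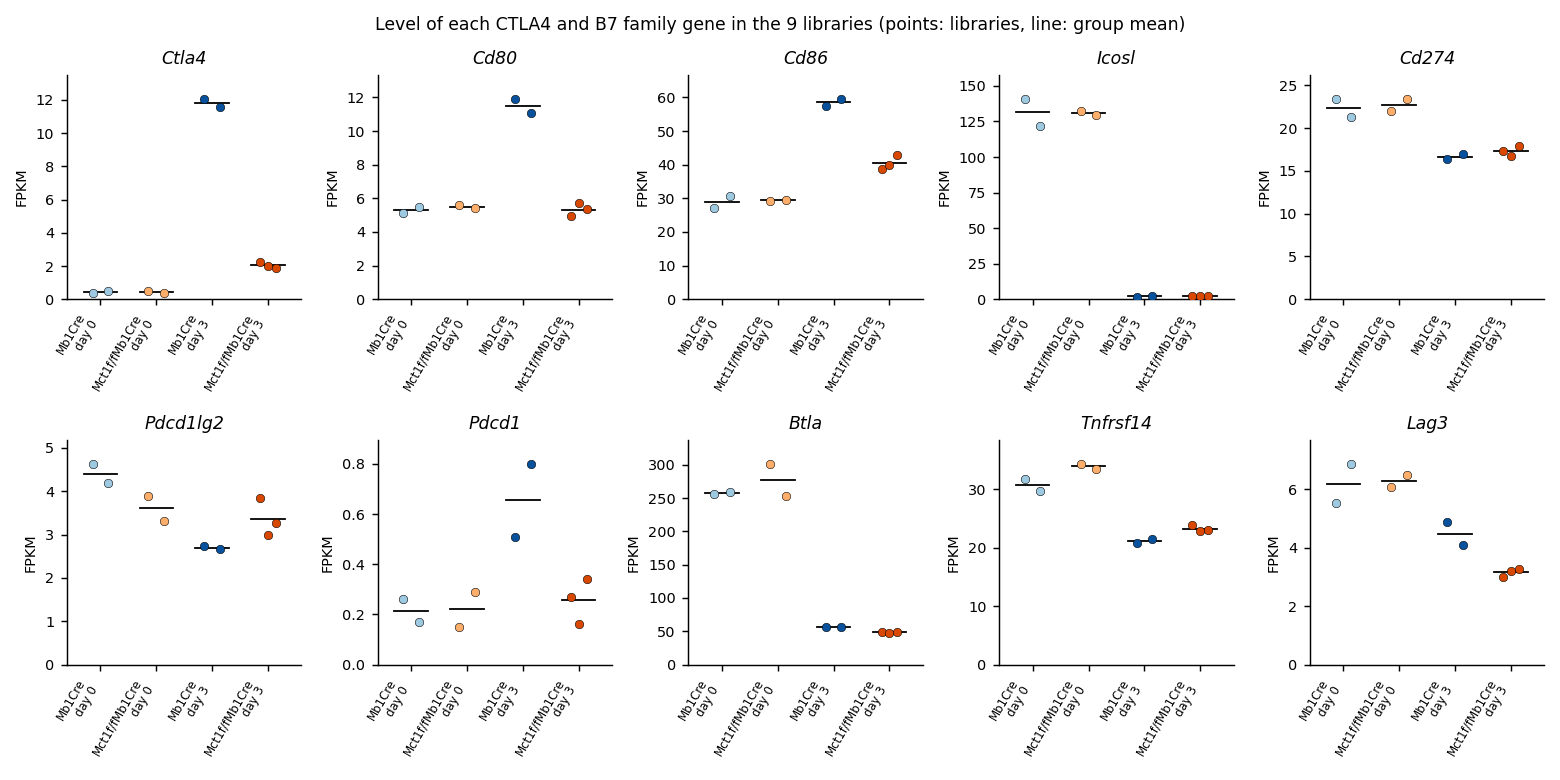
FPKM of the 10 genes in the 9 libraries, by genotype and day, with each vertical axis starting at 0 and a line at the group mean. The day 3 control libraries of *Ctla4* (11.6 and 12.1 FPKM) and *Cd80* (11.1 and 11.9 FPKM) stand above all other libraries of these genes, while *Icosl* is at 122 to 141 FPKM on day 0 and at 1.77 to 2.56 FPKM on day 3.

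After 3 days in culture the order had turned over. In the control, *Cd86* (58.6 ± 1.53 FPKM) and *Btla* (56.3 ± 0.460 FPKM) came first, *Ctla4* (11.8 ± 0.347 FPKM) and *Cd80* (11.5 ± 0.587 FPKM) overlapped at ranks 5 and 6, and *Icosl* had moved to rank 9 (2.02 ± 0.347 FPKM; all SD, n = 2). In *Mct1f/fMb1Cre* cells *Btla* (48.3 ± 1.33 FPKM) stood above *Cd86* (40.5 ± 2.05 FPKM), and *Ctla4* was at rank 9 with 2.04 ± 0.167 FPKM (SD, n = 3).

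*Ctla4* is described across the 4 groups without a test, because its day 3 values chose the members. It was at 0.35 and 0.52 FPKM in naive control cells, and at 0.50 and 0.38 FPKM in naive *Mct1f/fMb1Cre* cells. On day 3 it was at 12.1 and 11.6 FPKM in the control and at 2.23, 1.99 and 1.91 FPKM in *Mct1f/fMb1Cre* cells. The naive libraries of both genotypes overlapped, both day 3 groups lay above them, and the day 3 groups did not overlap. The mean level was 27.2-fold higher on day 3 than on day 0 in the control and 4.64-fold higher in *Mct1f/fMb1Cre* cells, or 3.16 (SE 0.0972) and 1.08 (SE 0.0888) as differences of log2(FPKM + 1), a scale that understates the change of low genes. The day 3 level in *Mct1f/fMb1Cre* cells was 17.3% of the control. These bulk values cannot tell fewer cells with *Ctla4* RNA from less RNA per cell.

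Markers of T cells differed among themselves on day 3. *Cd3e* was at 0 to 0.11 FPKM, *Cd4* at 0 to 0.07 FPKM and *Foxp3*, the factor of regulatory T cells, at 0.01 to 0.08 FPKM in all 5 day 3 libraries. On day 3, 3 of the 11 measured T cell markers exceeded 1 FPKM, with *Cd2* at 15.6 to 26.1 FPKM, *Lck* at 10.1 to 12.6 FPKM and *Cd8b1* at 1.01 to 1.67 FPKM. Over these 11 genes the summed level went from 233 to 275 FPKM on day 0 to 28.9 to 41.6 FPKM on day 3, with the lower day 3 values in the control. Most of this sum was *Cd2* on both days, at 175 to 213 FPKM on day 0. On that day *Cd3e* was at 1.76 to 2.93 FPKM and *Cd3d* at 1.52 to 2.34 FPKM. The sum therefore mostly followed *Cd2* and is no measure of T cell content or of its difference between the genotypes. The part of T cells in the level of *Ctla4* was not tested. The neighbours of *Ctla4* went the other way: *Cd28*, the activating counterpart of CTLA4, was at 0.96 to 1.08 FPKM on day 0 and 0.32 to 0.42 FPKM on day 3, and *Icos*, another receptor of the CD28 family, at 1.26 to 1.78 and 0.08 to 0.14 FPKM.

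**Figure D2:**
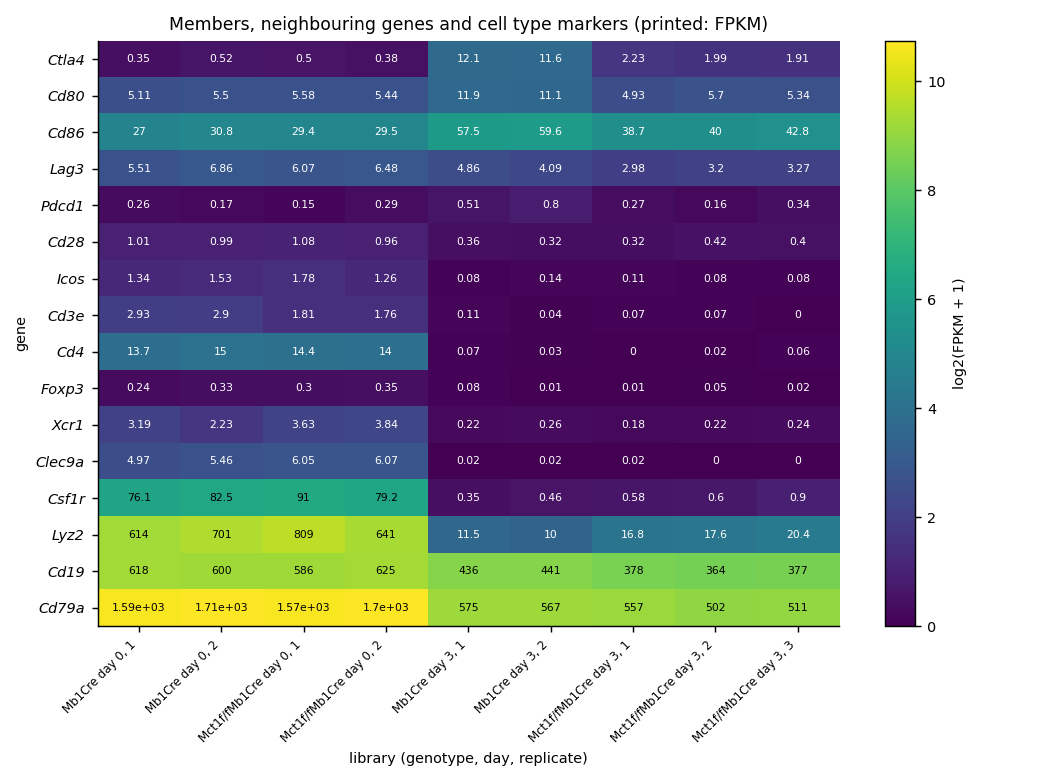
Heat map of log2(FPKM + 1), with FPKM printed in each cell, for 5 members, the neighbours *Cd28* and *Icos*, and markers of T cells, dendritic cells, myeloid cells and B cells in the 9 libraries. In the day 3 columns *Ctla4* is at 1.91 to 12.1 FPKM, the 3 T cell markers drawn (*Cd3e*, *Cd4* and *Foxp3*) and *Clec9a* are at 0 to 0.11 FPKM, and markers of the same lists that are not drawn, such as *Cd2* (15.6 to 26.1 FPKM), *Lck* (10.1 to 12.6 FPKM) and *Flt3* (6.67 to 17.6 FPKM), were above the drawn ones.

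*Cd80* and *Cd86*, the ligands shared by CTLA4 and CD28, rose with activation in control cells. *Cd80* was at 5.11 and 5.50 FPKM on day 0 and at 11.9 and 11.1 FPKM on day 3, a rise of 2.17-fold without overlap of the days (log2 difference 0.99, SE 0.0755, limma adjusted p = 2.39e-07). *Cd86* was at 27.0 and 30.8 FPKM on day 0 and at 57.5 and 59.6 FPKM on day 3, a rise of 2.03-fold, again without overlap (log2 difference 1.00, SE 0.0651, limma adjusted p = 6.15e-08). These were the 2 of 8 members, *Ctla4* left aside, that were called higher, which required an adjusted p below 0.05 together with a log2 difference beyond 0.5. Over all tested genes 24.8% were called higher in this comparison, so the members' share was near the background.

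In *Mct1f/fMb1Cre* cells neither ligand was called. *Cd80* was at 5.58 and 5.44 FPKM on day 0 and at 4.93, 5.70 and 5.34 FPKM on day 3, and the days overlapped. The log2 difference was -0.04 with a 95% interval of -0.20 to 0.11 (limma adjusted p = 0.564). It was 0.14 after median-of-ratios scaling and 0.25 after quantile normalization. *Cd86* was at 29.4 and 29.5 FPKM on day 0 and at 38.7, 40.0 and 42.8 FPKM on day 3. All its day 3 libraries lay above those of day 0, with a log2 difference of 0.45 that passed the adjusted p (limma adjusted p = 2.66e-05) but not the limit of 0.5, though it did after median-of-ratios scaling (0.66). Of the 8 members, 0 were called higher in this genotype, beside 23.4% of all tested genes. In either direction 6 had a limma adjusted p under 0.05, as had 9258 of the 10823 tested genes.

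*Icosl* and *Btla* had the largest falls with activation, in both genotypes. *Icosl*, whose product binds ICOS on T cells, went from 141 and 122 FPKM to 1.77 and 2.26 FPKM in the control and from 132 and 129 FPKM to 2.45, 2.56 and 2.35 FPKM in *Mct1f/fMb1Cre* cells. The means fell 65.2-fold and 53.3-fold, as log2 differences of -5.46 and -5.25 (limma adjusted p = 2.64e-12 and 1.68e-12). *Btla*, the receptor of HVEM, went from 256 and 260 FPKM to 56.0 and 56.6 FPKM in the control, and from 301 and 253 FPKM to 49.4, 46.9 and 48.7 FPKM in *Mct1f/fMb1Cre* cells. Its log2 differences were -2.17 and -2.49 (limma adjusted p = 1.61e-10 and 2.77e-11), and the days did not overlap in either genotype.

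*Tnfrsf14* fell by smaller amounts than its receptor. It went from 31.7 and 29.7 FPKM to 20.7 and 21.5 FPKM in the control (log2 difference -0.52, limma adjusted p = 1.81e-06) and from 34.3 and 33.4 FPKM to 22.9 to 23.8 FPKM in *Mct1f/fMb1Cre* cells (log2 difference -0.53, limma adjusted p = 7.20e-07). *Btla* thus stood at 7.56 to 8.79 times the level of *Tnfrsf14* in the day 0 libraries and at 2.05 to 2.71 times on day 3. The call of *Tnfrsf14* was at the edge of the log2 limit: the control value was -0.47 without control replicate 1 of day 0 and -0.50 without control replicate 1 of day 3, both just under the limit, and median-of-ratios scaling gave -0.32 in the control and -0.31 in *Mct1f/fMb1Cre* cells.

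The ligands of PD-1 had smaller differences. *Cd274* was at 23.4 and 21.3 FPKM on day 0 and at 16.4 and 16.9 FPKM on day 3 in the control, and at 21.9 and 23.4 FPKM and 16.7 to 17.9 FPKM in *Mct1f/fMb1Cre* cells. The log2 differences of -0.40 and -0.37 passed the adjusted p (limma adjusted p = 7.19e-05 and 6.51e-05) but not the limit, which they passed when the libraries were scaled to one total (-0.60 and -0.54). *Pdcd1lg2* fell in the control from 4.63 and 4.18 FPKM to 2.73 and 2.66 FPKM (log2 difference -0.55, limma adjusted p = 4.68e-04), a call that was lost without control replicate 1 of day 0 (-0.49) and under other scalings (-0.38 with median of ratios, -0.22 with quantiles). In *Mct1f/fMb1Cre* cells it was at 3.90 and 3.32 FPKM and at 2.99 to 3.85 FPKM, which overlapped (log2 difference -0.08, 95% interval -0.29 to 0.13, limma adjusted p = 0.449; 0.09 with median of ratios and 0.33 with quantiles).

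*Pdcd1*, the gene of PD-1, stayed under 1 FPKM in all 9 libraries. It was at 0.26 and 0.17 FPKM, then 0.51 and 0.80 FPKM in the control, and at 0.15 and 0.29 FPKM, then 0.27, 0.16 and 0.34 FPKM in *Mct1f/fMb1Cre* cells. The day 3 control libraries were the highest, and without the filter on low values the log2 difference of the days was 0.44 in the control (limma adjusted p = 0.00856), under the limit. With unknown depth such levels cannot be given a counting error.

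*Lag3* fell in *Mct1f/fMb1Cre* cells, from 6.07 and 6.48 FPKM to 2.98, 3.20 and 3.27 FPKM (log2 difference -0.81, limma adjusted p = 7.53e-06). That call was lost with quantiles (-0.49) and when 5 in place of 1 was added to the FPKM (-0.47). In the control *Lag3* was at 5.51 and 6.86 FPKM on day 0 and at 4.86 and 4.09 FPKM on day 3. The days did not overlap there, and the log2 difference of -0.39 (limma adjusted p = 0.004) was under the limit. The difference was beyond the limit without control replicate 1 of day 0 (-0.53) and with equal totals (-0.56). It was -0.21 with median of ratios and -0.15 with quantiles.

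Of the 8 members tested for activation, 4 fell in the control (*Icosl*, *Btla*, *Pdcd1lg2* and *Tnfrsf14*) and 4 in *Mct1f/fMb1Cre* cells (*Icosl*, *Btla*, *Tnfrsf14* and *Lag3*), beside 33.0% and 33.2% of all tested genes called lower. The median log2 difference of the 8 was -0.46 and -0.45, and that of all tested genes -0.12 and -0.14. The days did not overlap for 8 of 8 members in the control and for 6 of 8 in *Mct1f/fMb1Cre* cells, where 91.9% and 89.8% of all tested genes did not overlap. Scaling moved the median of all genes, to -0.31 and -0.30 with equal totals and to 0.07 and 0.06 with median of ratios. It also moved the counts of members called lower, to 6, 2 and 3 in the control with equal totals, median of ratios and quantiles. In *Mct1f/fMb1Cre* cells these counts were 5, 3 and 3.

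**Figure D3:**
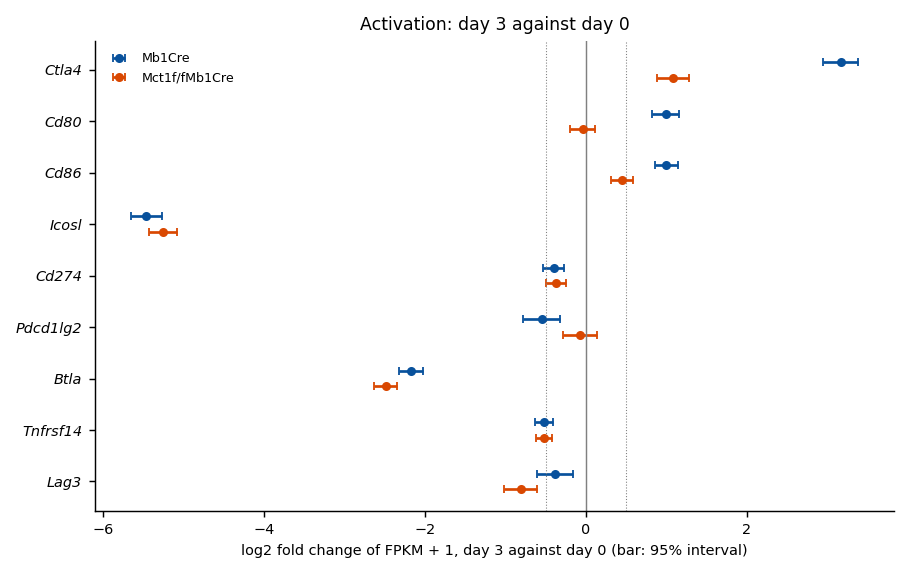
Log2 difference of FPKM + 1 between day 3 and day 0 for the 9 tested genes, with 95% intervals, in control (blue) and *Mct1f/fMb1Cre* cells (orange), with dotted lines at the limit of 0.5. *Icosl* (-5.46 and -5.25) and *Btla* (-2.17 and -2.49) lie far to the left in both genotypes, while *Cd80* is at 0.99 in the control and -0.04 in *Mct1f/fMb1Cre* cells.

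Markers of other cells moved with the days as well. The summed level of 8 myeloid markers was 1017 to 1794 FPKM on day 0, with *Lyz2* at 614 to 809 FPKM, and 15.7 to 26.3 FPKM on day 3, with all 8 genes called lower in both genotypes. The 6 dendritic cell markers summed to 74.2 to 84.7 FPKM on day 0 and 10.1 to 23.1 FPKM on day 3. The 6 NK cell markers summed to 83.7 to 102 FPKM and 93.5 to 106 FPKM, most of it *Gzma* on day 3. In each genotype 4 of these 6 were called lower on day 3 and 1, *Gzma*, higher. The 5 erythroid markers summed to 96.0 to 173 FPKM and 4.34 to 7.95 FPKM, with *Hbb-bs* at 0 in all day 3 libraries. Most of the day 3 sum was *Hbb-bt*, at 7.30 to 19.6 FPKM on day 0 and 4.31 to 7.69 FPKM on day 3. It was not called in the control (log2 difference -0.46) and was called lower in *Mct1f/fMb1Cre* cells (-1.07). Markers called lower with day 3 levels under 1 FPKM, such as *Csf1r* (0.35 to 0.90 FPKM), passed the filter through day 0 alone. The part of these other cells in the day 0 levels of the members was not tested. With only the *Mct1f/fMb1Cre* day 0 library that matched day 3 in *Ddx3y*, a lone library assumed to vary like the other groups, the values in that genotype were -5.27 for *Icosl*, -2.62 for *Btla*, -0.77 for *Lag3* and -0.54 for *Tnfrsf14*. The part of sex was not tested.

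Between naive cells of the genotypes, 0 of the 9 tested members were called. On day 0 the log2 differences between *Mct1f/fMb1Cre* and control cells ran from -0.23 to 0.14, with a median of 0.02, and 0.277% of all tested genes were called in either direction. *Ctla4*, at 0.35 to 0.52 FPKM, differed by 0.01 and overlapped between the genotypes, which at so low a level is given without a p. *Cd80* differed by 0.05 (-0.12 to 0.21, limma adjusted p = 0.856) and *Cd86* by 0.03 (-0.12 to 0.17, limma adjusted p = 0.910). At an unadjusted p under 0.05 there were 2 members, which were also the 2 whose genotypes did not overlap, beside 38.4% of all tested genes. *Pdcd1lg2* was at 4.63 and 4.18 FPKM in the control and at 3.90 and 3.32 FPKM in *Mct1f/fMb1Cre* cells (log2 difference -0.23, limma adjusted p = 0.423), and *Tnfrsf14* at 31.7 and 29.7 against 34.3 and 33.4 FPKM (0.14, limma adjusted p = 0.338). Without the 1 *Mct1f/fMb1Cre* library of day 0 with *Ddx3y*, which leaves a lone library assumed to vary like the other groups, 0 members were called.

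On day 3 the genotypes differed most, among the tested members, in *Ctla4* and in the 2 ligands it binds. The values of this comparison chose the members, so they are given without a test. *Ctla4* was lower by a log2 difference of -2.08 (SE 0.0888). *Cd80* was at 46.2% of the control, with a log2 difference of -0.99 (SE 0.0689), and *Cd86* at 69.2%, with -0.52 (SE 0.0594). For all 3 genes each *Mct1f/fMb1Cre* library lay below each control library. *Cd86* was at the edge of the limit and was not called without control replicate 2 or without *Mct1f/fMb1Cre* replicate 1 of day 3, with values down to -0.49.

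By the limits used for the other comparisons these were 3 of 9 members, beside 1.53% of all tested genes called lower, a count that the choice of *Ctla4* fixed in part and that supports nothing. *Lag3*, at 70.4% of the control (log2 difference -0.40), was the nearest outside the limit, *Btla* was at 85.8% (-0.22), and *Pdcd1* was at 39.2% of a control mean of 0.655 FPKM. *Pdcd1lg2* (0.24), *Icosl* (0.20) and *Tnfrsf14* (0.13) were slightly higher in *Mct1f/fMb1Cre* cells, and *Cd274* (0.05) overlapped between the genotypes. The genotypes did not overlap in 8 of the 9 tested members, beside 47.1% of all tested genes.

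The day 3 difference of *Cd80* and *Cd86* was unequal. *Cd86* stood at 4.82 to 5.60 times the level of *Cd80* in the other 6 libraries, which included the day 3 controls, and at 7.86, 7.02 and 8.01 times in the 3 *Mct1f/fMb1Cre* libraries of day 3. Of the 6 dendritic cell markers, *Flt3* and *Zbtb46* were lower in *Mct1f/fMb1Cre* cells on day 3 (*Flt3* at 17.6 and 17.4 FPKM against 6.67 to 7.41 FPKM), so that the list summed to 23.1 FPKM in both controls and to 10.1 to 11.3 FPKM in *Mct1f/fMb1Cre* cells. *Clec9a* was at 0 to 0.02 FPKM, *Xcr1* at 0.18 to 0.26 FPKM and *Siglech* at 0.04 to 0.09 FPKM in all 5 of these libraries. Of the 8 myeloid markers, 2 were called higher in *Mct1f/fMb1Cre* cells on day 3 (*Lyz2* and *Adgre1*) and 0 lower, and the sum of the list, most of it *Lyz2*, was 23.3 to 26.3 FPKM against 15.7 to 17.5 FPKM. The part of *Flt3* and *Zbtb46* carrying cells in the difference of *Cd80* and *Cd86* was not tested.

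**Figure D4:**
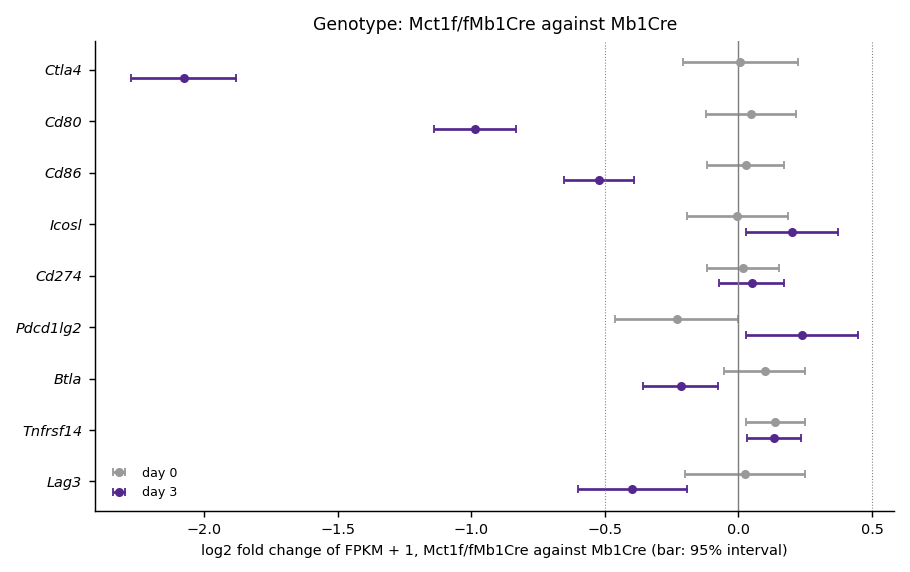
Log2 difference of FPKM + 1 between *Mct1f/fMb1Cre* and control cells for the 9 tested genes, with 95% intervals, on day 0 (grey) and day 3 (purple), with dotted lines at the limit of 0.5. On day 0 all genes lie between -0.23 and 0.14, and on day 3 *Ctla4* (-2.08), *Cd80* (-0.99) and *Cd86* (-0.52) lie beyond the limit.

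Set against day 0, the genotype effect of day 3 was lower by -2.08 (SE 0.132) in *Ctla4*, by -1.03 (SE 0.102) in *Cd80* and by -0.55 (SE 0.0881) in *Cd86*. By the same limits these were 3 of 9 members with a lower interaction of genotype and day, beside 2.22% of all tested genes, and 0 had a higher one, but after quantile normalization *Pdcd1lg2* did (0.55). The interaction shares its day 3 libraries with the choice of the members and supports nothing beyond a description. It also holds the day 0 libraries that differed in *Ddx3y*, and the part of sex was not tested. The value of *Cd86* was -0.46 without control replicate 1 of day 0, and that of *Lag3* was -0.42, or -0.56 without control replicate 2 of day 0.

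Beyond the members, 60 genes in 5 lists of related function were followed, of which 59 were in the table and 40 were tested. In the control 6 rose and 19 fell with activation, beside 24.8% and 33.0% of all tested genes, with a median log2 difference of -0.38 beside -0.12 over all genes. In *Mct1f/fMb1Cre* cells 7 rose and 18 fell, beside 23.4% and 33.2%, with a median of -0.21 beside -0.14. Of the 10 other genes of the B7 and CD28 families only *Vsir* and 1 more were tested, and *Vsir*, the gene of the checkpoint VISTA, fell in both genotypes (-1.46 and -1.79). Of 9 tested genes of TNF superfamily costimulation and HVEM partners, 2 rose and 6 fell in the control. *Ltb* (-3.28 and -3.03), the gene of lymphotoxin beta, its receptor *Ltbr* (-2.62 and -2.59) and the costimulatory receptor *Cd27* (-2.09 and -1.97) fell, and *Tnfrsf8*, the gene of CD30, rose (4.33 and 3.63). Adjusted p-values of these genes by limma were all under 0.05. *Tnfrsf8*, at 0.23 to 0.44 FPKM on day 0, passed the filter through its day 3 levels alone. *Ltbr*, at 0.22 to 0.36 FPKM, and *Cd27*, at 0.32 to 0.63 FPKM on day 3, passed it through day 0 alone. The filter thus set the direction of these 3 genes in part.

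Among 12 tested genes of other checkpoints and their ligands, 4 rose and 6 fell in each genotype. Over all tested genes 24.8% rose and 33.0% fell in the control, and 23.4% and 33.2% in *Mct1f/fMb1Cre* cells. Among the falls were *Sirpa* (-3.65 and -3.47), *Lgals3* (-3.40 and -3.14), *Havcr2*, the gene of TIM-3 (-3.32 and -3.48), and *Cd244a* (-2.53 and -2.83). Myeloid or NK cells also express these genes, and the part of such cells here was not tested. *Havcr2*, at 0.09 to 0.25 FPKM, and *Cd244a*, at 0.30 to 0.47 FPKM on day 3, passed the filter through day 0 alone. Of 11 tested genes of the trafficking and stability of CTLA4 and PD-L1, 4 fell in the control and 3 in *Mct1f/fMb1Cre* cells. Both counts were near the shares over all tested genes. The genes that fell were *Lax1* (-1.20 and -1.05), *Cmtm6*, whose product stabilizes PD-L1 (-0.92 and -0.98), *Rab11b* (-0.79 and -0.68) and, in the control, *Ap1m1* (-0.59, against -0.21). Of 6 phosphatase genes, *Ptpn6*, which encodes SHP-1 (-1.33 and -1.07), and *Inpp5d*, which encodes SHIP1 (-0.99 and -0.89), fell in both genotypes, again near those shares.

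Between the genotypes, 0 of the 40 list genes were called on day 0 and 2 on day 3, both lower, beside 1.53% of all tested genes, and both of the TNF superfamily. *Tnfsf9*, which encodes the ligand of 4-1BB, was at 9.43 and 10.8 FPKM in the control and at 5.58, 5.40 and 5.78 FPKM in *Mct1f/fMb1Cre* cells (log2 difference -0.75, limma adjusted p = 3.89e-04). *Tnfrsf8* was at 26.0 and 24.7 FPKM in the control and at 15.0, 15.7 and 15.9 FPKM in *Mct1f/fMb1Cre* cells (log2 difference -0.67, limma adjusted p = 4.57e-04). Neither gene overlapped between the genotypes. None of the 11 trafficking genes or the 6 phosphatase genes was called on either day.

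**Figure D5:**
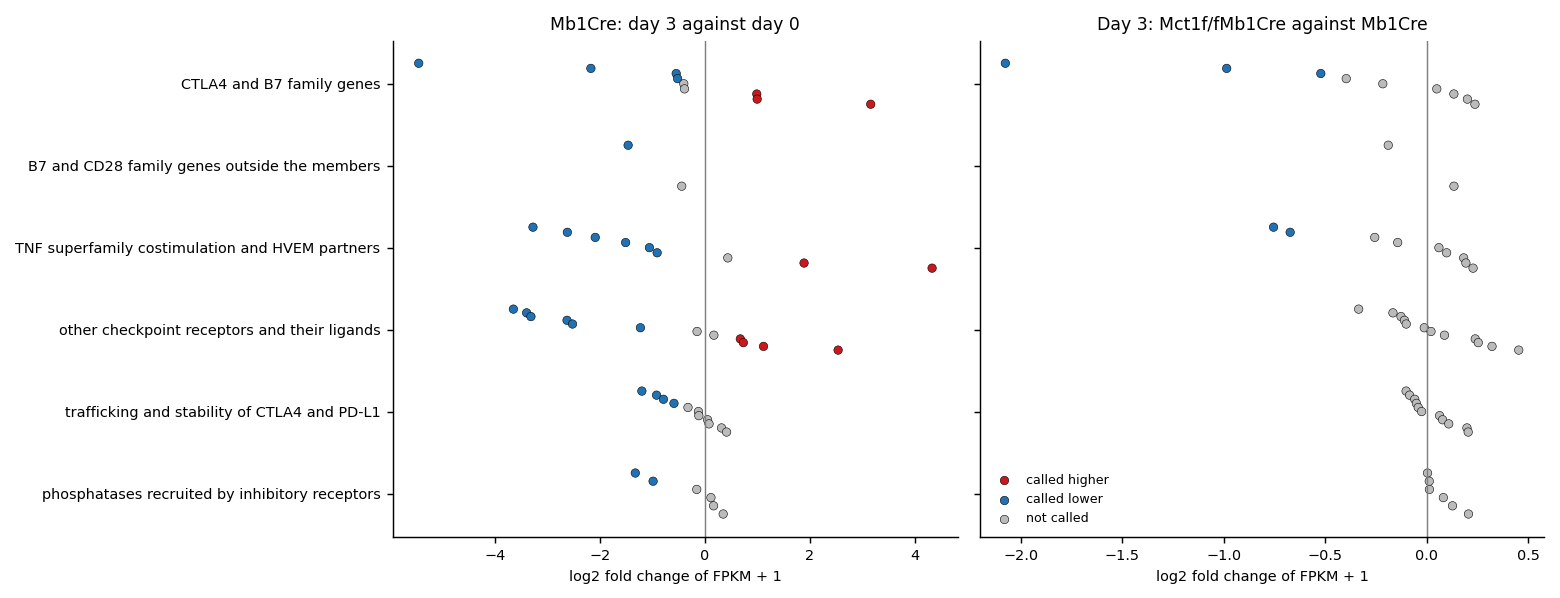
Log2 difference of FPKM + 1 for the 9 tested members and the 40 tested genes of 5 related lists, for activation in the control (left) and for genotype on day 3 (right), with 1 point per gene, red for called higher, blue for called lower and grey for not called. On the right, 3 members and 2 genes of the TNF superfamily list are called lower, and the other lists hold no called gene. Colours of the members on the right are a description, since that comparison chose them.

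The genes whose profile was most like that of *Ctla4* were ranked by the root mean square difference of log2(FPKM + 1) over the 9 libraries, each gene set relative to its mean in naive control cells. The 5 nearest of 10822 genes were *Gm42048* (0.186), *Htr7* (0.344), *Plcd1* (0.372), *Lrrc32* (0.415) and *Dusp14* (0.420), where the median gene was at 1.71. *Gm42048* was at 15.1 and 15.2 FPKM in naive and at 112 and 117 FPKM in day 3 control cells, and at 16.4 and 16.8 FPKM and 35.0 to 36.6 FPKM in *Mct1f/fMb1Cre* cells. *Htr7*, which encodes a serotonin receptor, was at 0.23 and 0.25 FPKM and then 11.3 and 11.0 FPKM in the control, and at 0.13 and 0.23 FPKM and 2.55 to 3.31 FPKM in *Mct1f/fMb1Cre* cells. *Plcd1* encodes a phospholipase C, *Lrrc32* the protein GARP, which holds latent TGF-beta at the cell surface, and *Dusp14* a protein phosphatase. The day 3 levels of the 5 genes in *Mct1f/fMb1Cre* cells were 23.2% to 38.5% of the control. The ranking used these same libraries and so fixed these low levels in part. The ranking depended on the scale, and 2 of the 5 stayed with a pseudocount of 0.1 or of 5, against 4 under each other scaling of the libraries.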

How the data were processed

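RNA of primary spleen B cells was sequenced in 9 libraries. The authors deposited FPKM per gene, rounded to 2 decimals. The submitters' processing notes name Bowtie2 and the builds GRCm38 and mm10. The library data were analysed by the sequencing institute, and the tool that made the FPKM and its annotation are not given in the sources used here. FPKM divide by gene length and mapped fragments, so a few abundant genes can shift the others. Groups and replicate numbers came from the sample labels.

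From the deposited FPKM, unscaled log2(FPKM + 1) values were taken, genes averaging less than 1 FPKM were dropped, and limma 3.58.1 (R 4.3.3) was fitted with 1 mean for each of the 4 groups and an empirical Bayes trend. P-values were adjusted by Benjamini-Hochberg over the 10823 genes. A call required an adjusted p below 0.05 together with a log2 difference beyond 0.5 in either direction. The fit was tested on simulated data with 200 changed genes.

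The members, lists and tests were chosen with earlier results of these data known. Named genes were the members, up to 4 called genes per list with the largest activation difference, list genes called between genotypes, genomic neighbours, the 5 genes most like *Ctla4*, cell markers, *Slc16a1* and *Ddx3y*. *Gzma*, *Flt3*, *Zbtb46* and other single markers were picked from their lists after their values were seen. Alternatives were pseudocounts of 0.1 and 5, other filters (none, or a mean of 5 FPKM), other scalings (equal totals, median of ratios, quantiles), other limits (1, or none), a fit of only the compared groups, a fit without the trend, a replicate block, and leaving out single libraries. A block with crossed control numbers was added after seeing the data. Coordinates and promoters came from RefSeq (GRCm38.p6), and figures were drawn with matplotlib 3.10.9.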

Additional observations from a re-analysis of the deposited data

Results flagged for a closer look

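The genotype effect differed between the days in 3 members, by the limma interaction of genotype and day. The difference of the log2 effects, day 3 minus day 0, was -2.08 in *Ctla4*, -1.03 in *Cd80* and -0.55 in *Cd86*. The day 3 values chose the members, so no p is given and the values are a description. The value of *Cd86* was -0.46, within the limit of 0.5, without control replicate 1 of day 0. The day 0 libraries also differed in *Ddx3y* from those of day 3, and the part of sex was not tested. In all 3 genes every *Mct1f/fMb1Cre* library of day 3 lay below every control library of day 3, and the genotypes overlapped on day 0.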

How the results depend on the processing

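With 2 or 3 libraries per group and unknown depth, small differences and levels under 1 FPKM could not be resolved, and the cause of the shifts below was not tested. Of 114 alternative counts, 107 stayed within 1.5 times the reported one. Calls of members in control activation were 6, and 2 with a log2 limit of 1. Within the 1.5 times they were 4 with a pseudocount of 5 or median of ratios, 5 with quantiles and 8 with equal totals or no limit. In *Mct1f/fMb1Cre* activation they were 4, and 2 with a pseudocount of 5 or a limit of 1. In the day 3 genotype comparison they were 3, 1 with a limit of 1 and 5 with no limit. The changed limit or larger pseudocount itself sets the counts under those settings. Of the 5 genes most like *Ctla4*, 2 stayed with a pseudocount of 0.1 and 2 with one of 5. Left out in turn, the libraries gave *Cd80* -0.0863 to 0.0017 and *Pdcd1lg2* -0.1699 to 0.0118 for *Mct1f/fMb1Cre* activation. For genotype on day 0 they gave *Ctla4* -0.0793 to 0.0919, *Cd86* -0.0643 to 0.1178, *Icosl* -0.1092 to 0.1015, *Cd274* -0.0484 to 0.0819, *Btla* -0.0289 to 0.2249 and *Lag3* -0.1122 to 0.1597. Where 1 library remained in a group, it was assumed to vary like the others. With 1 library left out the counts were 5 to 6, 4 to 4, 0 to 0 on day 0, 2 to 3 on day 3 and 2 to 4 for the interaction. Left out in turn, the libraries gave *Ctla4* 3.08 to 3.25 and 1.02 to 1.14 for activation and -2.12 to -2.04 on day 3. The log2 difference of *Ctla4* depended on the pseudocount, at 4.50 and 1.63 for control activation and -2.48 and -1.26 on day 3 with 0.1 and 5.

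Of 965 values of single members, 17 were counted as turned in sign, none of which was called. For the genotype on day 3, the interaction and the activation of *Ctla4*, only called values could be counted, so other turns were left out. The interaction of *Tnfrsf14*, for example, was -0.0043, and 0.0186 with equal totals. That of *Cd274* was 0.0324, and -0.0327 without control replicate 1 of day 0. In *Mct1f/fMb1Cre* activation median of ratios gave *Cd80* 0.14 and *Pdcd1lg2* 0.0913, and quantiles gave 0.25 and 0.33. The rest of the 17 came from the libraries left out above, apart from *Icosl* on day 0, at 0.0082 with median of ratios. The alternative with only the groups compared could not be run for the interaction, which needs all 4.

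The replicate numbers showed no clear pairing of the samples. The correlation of same-numbered deviations between the days was -0.122 in the control and 0.0533 and 0.0642 in *Mct1f/fMb1Cre* cells. With 2 control libraries per day both replicate numbers give the same control value. Correlations this small cannot show that the samples were unpaired. With the replicate block the counts of members called were 6, 4, 0, 3 and 3, as without it, and over all genes the day 3 comparison had 262 calls with and without it. With crossed control numbers the members' counts were 6, 4, 0, 3 and 3 and the day 3 calls 259.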
